A study of Mus musculus with 7 samples.

Results

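The SIX-family, EYA and SOX regulators examined here are 9 genes, Six2, Six4, Six5, Eya1, Eya3, Eya4, Sox4, Sox6 and Sox8, taken by their symbols from the 26607 genes listed for each library. All 9 were listed, all 9 were above 0 in at least 1 library, and 7 of them had a mean of at least 1 CPM (reads of a gene scaled to a common library total). The list was drawn up by symbol and selected on measured values, namely the expression differences of this same comparison, so their differences between groups are given as a description. Where a member is said to pass a threshold, this describes the values it was selected on and is not evidence of a difference. The libraries came from C2C12 myotubes, cells of an established mouse myoblast line that fuse into multinucleated fibers when serum is lowered. The control group (n = 3, replicates 1, 3 and 4) received no stimulation. The EPS group (n = 4, replicates 1 to 4) received electrical pulse stimulation for 1 day, starting 3 days after differentiation and followed by 1 h of rest. The line, the culture medium and the poly(A) RNA-seq protocol were common to both groups. The myotubes were grown without nerve, and whether the libraries came from independent cultures is not stated, so p-values may measure technical spread only.

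SIX-family proteins are homeodomain transcription factors that bind a DNA element known as MEF3 in the promoters of muscle genes. EYA proteins have no DNA-binding domain of their own and act as coactivators and phosphatases when bound to SIX-family proteins. Together with DACH proteins they form a network that acts upstream of the myogenic factors in the embryo, and in adult fibers they take part in the fast, glycolytic program. SOX proteins bind DNA through an HMG box. Of the members, SOX6 is known as a repressor of slow-fiber genes in fetal muscle, SOX8 is found in satellite cells and was reported to restrain differentiation, and SOX4 belongs to the same SOXC subgroup as SOX11.

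The starts of 8 of the members were found in the RefSeq promoter table on GRCm38.p6, as windows from 250 bases before to 50 bases after a start. Eya1 had no entry. The windows of 4 members are shown because they stand for the different outcomes in these libraries. Sox8 was the member with the largest difference between groups, and Sox4, Six4 and Eya3 were abundant members whose groups overlapped. The sequences run 5′ to 3′ on the strand of the gene. Capitals mark matches to the MEF3 letters TCAGGTT, the SOX letters AACAAT, the E-box CAGCTG, the AP-1 letters TGANTCA, the CRE letters TGACGTCA, the antioxidant element TGACNNNGC or the MEF2 motif, searched on both strands.
Sox8, chr17:25570637-25570936, minus strand: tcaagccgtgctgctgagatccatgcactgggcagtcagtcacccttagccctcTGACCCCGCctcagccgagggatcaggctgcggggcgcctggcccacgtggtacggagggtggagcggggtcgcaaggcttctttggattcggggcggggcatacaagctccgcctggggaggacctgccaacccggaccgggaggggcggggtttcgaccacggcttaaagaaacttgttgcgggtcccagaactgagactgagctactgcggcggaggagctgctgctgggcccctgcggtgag
Sox4, chr13:28953650-28953949, minus strand: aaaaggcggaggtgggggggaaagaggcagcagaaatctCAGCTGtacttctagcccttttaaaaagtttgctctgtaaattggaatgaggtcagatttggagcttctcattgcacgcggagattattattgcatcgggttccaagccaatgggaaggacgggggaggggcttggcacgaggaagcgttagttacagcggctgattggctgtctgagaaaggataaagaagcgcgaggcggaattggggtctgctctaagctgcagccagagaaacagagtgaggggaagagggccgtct
Six4, chr12:73113196-73113495, minus strand: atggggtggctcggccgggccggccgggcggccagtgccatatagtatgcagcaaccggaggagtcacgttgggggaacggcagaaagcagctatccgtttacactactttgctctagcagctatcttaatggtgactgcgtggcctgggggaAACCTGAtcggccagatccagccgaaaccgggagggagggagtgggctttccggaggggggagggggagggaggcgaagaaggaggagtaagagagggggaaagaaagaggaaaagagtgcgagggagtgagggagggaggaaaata
Eya3, chr4:132638796-132639095, plus strand: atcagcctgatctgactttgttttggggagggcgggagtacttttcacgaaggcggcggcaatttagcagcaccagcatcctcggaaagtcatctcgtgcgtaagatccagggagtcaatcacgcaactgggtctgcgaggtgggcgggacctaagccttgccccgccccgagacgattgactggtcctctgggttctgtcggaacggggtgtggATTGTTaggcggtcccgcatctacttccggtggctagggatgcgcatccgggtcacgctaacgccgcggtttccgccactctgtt
The window of the first of 2 listed Six4 starts held the MEF3 letters, read on the strand opposite to the gene, at position -97 from the start. They occur in 4.07% of the 32544 distinct windows of the table. The Eya3 window held the SOX letters, also on the opposite strand, at position -35, as do 10.6% of all windows. The Sox4 window held the E-box at position -211, found in 16.4% of windows. The Sox8 window held none of these 3 motifs and 1 match to the antioxidant element at position -196, which 12.4% of all windows share. The AP-1 letters, present in 7.79% of windows, were found among the members at Six5 only, at position -173. Sox6, with 6 listed starts and no window shown, also held matches. These were the MEF3 and SOX letters at start 5, the E-box at start 4 and the MEF2 motif, found in 3.16% of windows, at start 6. A match says that the letters are present in the window and nothing on binding.

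The recovered reads per library totaled between 16616917 and 22120641. Control replicate 4 stood apart, with the highest total but 14014 genes above 0 against 16144 to 16984 in the other libraries. It held 359 genes at 1 to 5 reads, against 2670 to 3181 in the others, so values of low genes are also given without it. Fiber identity was checked with 10 myotube markers, among them Acta1, Ttn and Mymk, which all had means above 1 CPM in both groups. They summed to 17594 to 22619 CPM in the control and 12128 to 19135 CPM in the EPS libraries, 9 of the 10 had a lower mean log2 value in the EPS group (median difference -0.41), and 0 passed the thresholds in limma while 1, Mymx, had an unadjusted P under 0.05. Of 12 markers of cells that are not muscle, 8 had at most 3 reads in every library, and they summed to at most 2.39 CPM. All 10 proliferating-cell markers had a higher mean log2 value in the EPS group, with summed levels of 308 to 418 CPM in the control and 475 to 1374 CPM in the EPS libraries. Of these, 1, Birc5, passed the thresholds in limma, all 10 had an unadjusted P under 0.05 (11.6% of all tested genes), 0 had an adjusted p under 0.05, and 3 had groups that did not overlap (10.6% of all tested genes). The part of proliferating cells and of the lower myotube markers in the results that follow was not tested. In such bulk libraries, fewer cells of a kind and less RNA per cell cannot be told apart.

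Between the groups, 1 of the 9 members, Sox8, passed an unadjusted P under 0.01 with more than a 2-fold difference in limma. Among all 19144 tested genes, 1.41% passed these thresholds, 0.439% with lower and 0.966% with higher levels in the EPS group. Sox8 was also the 1 member with a Benjamini-Hochberg adjusted p under 0.05 over all genes, a group that held 0.141% of the tested genes, 0.0418% with lower levels in the EPS group. The EPS and control libraries did not overlap for 2 members, Sox8 and Eya1, while they did not overlap for 10.6% of all tested genes, with the EPS group lower in 2.85% and higher in 7.76%. Among the 12256 genes with a mean of at least 1 CPM, to which 7 members belong, 2.15% passed the thresholds and 12.7% had groups that did not overlap. These counts rest on the comparison that was known when the members were chosen, and nothing is read from them. Differences are given as log2(CPM + 1) in the EPS group minus the control, from the limma fit, with the standard error (SE). The median difference over those 12256 genes was 0.10 on the deposited scale and -0.0048 after median-of-ratios scaling. Relative to 0.10, the differences were -2.03 for Sox8, -0.34 for Six5, -0.23 for Sox4, -0.08 for Six4, -0.02 for Eya3, 0.20 for Eya4 and 0.33 for Eya1.

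**Figure D1:**
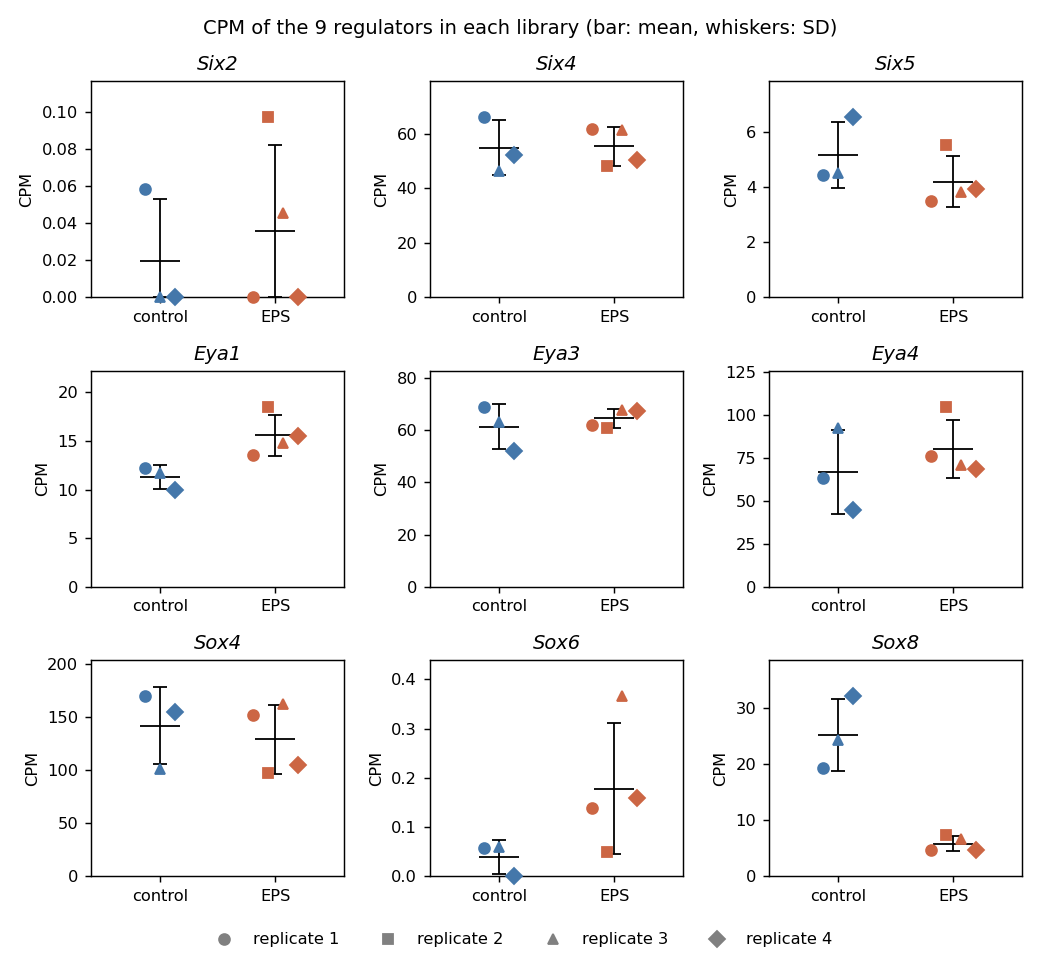
Level of each member in CPM (vertical axis, starting at 0) in the 3 control (blue) and 4 EPS (orange) libraries, with the marker shape giving the replicate number, the horizontal bar the group mean and the whiskers the SD, cut at 0. Only Sox8 (EPS lower) and Eya1 (EPS higher) have groups that do not overlap, and Six2 and Sox6 stay at or below 0.365 CPM.

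Among the SIX-family genes, Six4 was the most abundant member and its groups overlapped. Six4 (ENSMUSG00000034460.9, chromosome 12, 73099609 to 73113456 on GRCm38) was at 66.1, 46.2 and 52.3 CPM in control replicates 1, 3 and 4, and at 61.5, 48.1, 61.3 and 50.3 CPM in EPS replicates 1 to 4. All EPS libraries lay within the control range. The means were 54.8 ± 10.2 CPM (SD, n = 3) and 55.3 ± 7.12 CPM (SD, n = 4), a log2 difference of 0.02 (SE 0.17) that became -0.09 after median-of-ratios scaling.
Six5 (ENSMUSG00000040841.5, chromosome 7, 19094594 to 19098549) lies next to Dmpk, the myotonic dystrophy kinase gene, with a gap of 0.772 kb. It was at 4.43, 4.51 and 6.55 CPM in the control and at 3.49, 5.55, 3.84 and 3.93 CPM in the EPS libraries. Of the EPS libraries, replicate 2 was above 2 of the control libraries and the other 3 were below all of them. The log2 difference was -0.24 (SE 0.26), and -0.09 without control replicate 4, which held the highest value.
Six2 (ENSMUSG00000024134.11, chromosome 17, 85684277 to 85688274), better known for its role in kidney progenitors, had 1, 0 and 0 reads in the control and 0, 2, 1 and 0 reads in the EPS libraries. Both groups were under a floor of 3 reads per library, which corresponds to 0.136 to 0.181 CPM and covers counting error only, so no fold is given. A transcript of Six2 was not detectable above this floor.

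Of the EYA coactivators, 3 members had a mean of at least 1 CPM, and Eya1 was the member with the clearest higher level in the EPS group. Eya1 (ENSMUSG00000025932.14, chromosome 1, 14168954 to 14310235) was at 12.2, 11.7 and 9.90 CPM in the control and at 13.5, 18.5, 14.8 and 15.5 CPM in the EPS libraries. The lowest EPS value exceeded the highest control value by 1.30 CPM. The means were 11.3 ± 1.22 CPM (SD, n = 3) and 15.6 ± 2.11 CPM (SD, n = 4), a ratio of 1.38. Its log2 difference was 0.43 (SE 0.20), or 0.33 above the median of the genes. After median-of-ratios scaling the groups still did not overlap, at 10.5 to 13.0 in the control and 13.3 to 16.8 in the EPS libraries, in scaled CPM.
Eya3 (ENSMUSG00000028886.15, chromosome 4, 132638987 to 132724765), whose product is a tyrosine phosphatase like the other EYA proteins, varied least among the EPS libraries. It was at 69.0, 63.0 and 52.0 CPM in the control and at 62.1, 60.7, 67.8 and 67.4 CPM in the EPS libraries. The EPS libraries all lay within the control range, and the coefficient of variation was 14.0% in the control and 5.61% in the EPS group. The log2 difference was 0.08 (SE 0.14), and -0.03 after median-of-ratios scaling.
Eya4 (ENSMUSG00000010461.15, chromosome 10, 23102963 to 23350786), known from hereditary deafness and heart disease, was at 62.9, 92.5 and 44.4 CPM in the control and at 76.0, 104.6, 70.6 and 68.5 CPM in the EPS libraries. The groups overlapped, with control replicate 3 above all EPS libraries but replicate 2. The log2 difference was 0.30 (SE 0.26), and it was 0.04 without control replicate 4 and 0.57 without control replicate 3. Its coefficient of variation in the control, 36.4%, was the largest among the 7 members above 1 CPM.

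Of the SOX members, Sox8 was 4.32 times as high in the control as in the EPS group, Sox4 overlapped between the groups, and Sox6 was at a few reads. Sox8 (ENSMUSG00000024176.10, chromosome 17, 25565892 to 25570686) was at 19.3, 24.2 and 32.0 CPM in control replicates 1, 3 and 4, and at 4.70, 7.36, 6.58 and 4.67 CPM in EPS replicates 1 to 4. The highest EPS library was 11.9 CPM below the lowest control library. These values rest on 331, 402 and 708 reads in the control and on 101, 151, 144 and 88 reads in the EPS libraries. The means were 25.2 ± 6.41 CPM (SD, n = 3) and 5.83 ± 1.35 CPM (SD, n = 4), so that the control mean was 4.32 times the EPS mean. The log2 difference was -1.93 (SE 0.26), and it ranged from -2.23 to -1.75 over 16 other settings, being smallest in size without control replicate 4. A gene on the opposite strand, 2810468N07Rik, overlaps Sox8 and was at 1.01 ± 0.175 CPM (SD, n = 3) and 0.654 ± 0.233 CPM (SD, n = 4). Since the strand setting of the authors' counting is not known, reads of the pair could be mixed, and that gene's mean CPM was the lower of the pair in both groups.
Sox4 (ENSMUSG00000076431.4, chromosome 13, 28948919 to 28953713), a gene of 1 exon, was the most abundant member in CPM. It was at 169.2, 100.6 and 154.6 CPM in the control and at 151.3, 97.6, 162.3 and 104.7 CPM in the EPS libraries. High and low libraries were present in both groups. The log2 difference was -0.13 (SE 0.25), and leaving out control replicate 1 turned it to 0.01.
Sox6 (ENSMUSG00000051910.13, chromosome 7, 115470872 to 116038796) had 1, 1 and 0 reads in the control and 3, 1, 8 and 3 reads in the EPS libraries. The 3 control libraries were under the floor of 3 reads, and among the EPS libraries replicate 3 alone was above it. Summed over libraries, 2 reads of 55890114 in the control stood against 15 of 82732957 in the EPS group, a ratio of 5.07 with a 95% interval of 1.18 to 45.7 (exact conditional binomial, counting error only). Without EPS replicate 3 the ratio was 3.22, with an interval of 0.612 to 31.7, and without control replicate 4 it was 3.06, with an interval of 0.712 to 27.6.

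**Figure D2:**
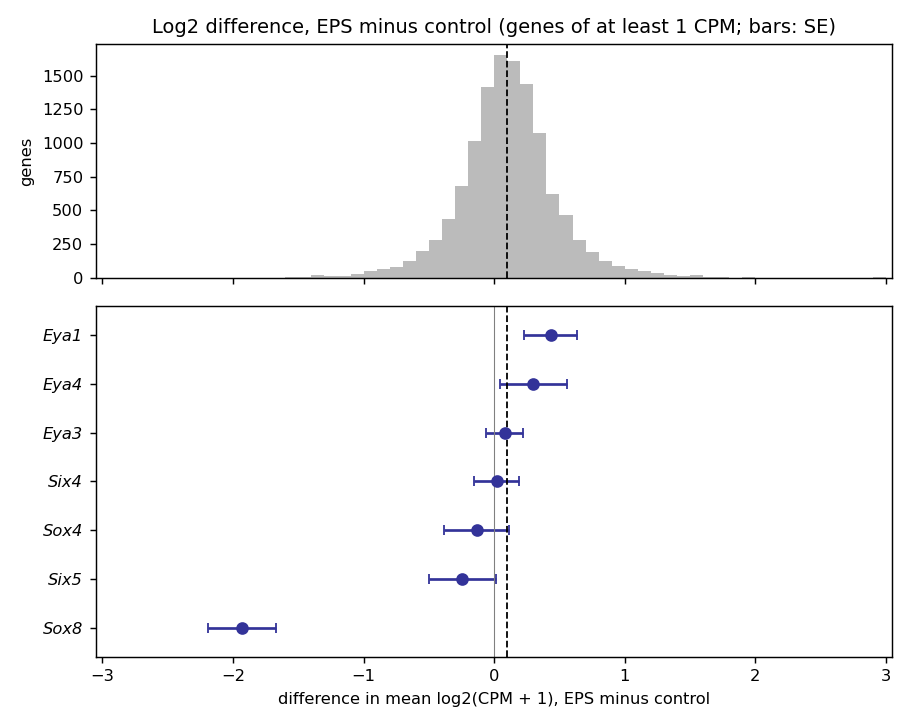
Difference in mean log2(CPM + 1), EPS minus control (horizontal axis), as a histogram over the 12256 genes with a mean of at least 1 CPM, values beyond 3 being placed in the end bins, and for the 7 members above 1 CPM with the SE as bars. The dashed line is the median of the genes, 0.10, and of the members only Sox8, at -1.93, lies outside the range from -0.24 to 0.43.

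Of the 7 members above 1 CPM, 6 had a log2 difference within 0.5 of 0, as did 83.5% of the 12256 genes above 1 CPM. Their median difference was 0.02, beside 0.10 over those genes. The direction of Six4 changed with the scaling and when any 1 of 4 libraries was left out (control replicates 3 and 4, EPS replicates 1 and 3), that of Eya3 changed with median-of-ratios scaling, edgeR and DESeq2 and without control replicate 4, that of Sox4 changed without control replicate 1, and those of Sox8, Eya1, Eya4 and Six5 were kept under every alternative tried.

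Levels of different genes were compared per kb of annotated exon, which allows for gene length but not for which transcripts were made. Per kb, Sox4 led in the control at 29.5 ± 7.54 CPM per kb (SD, n = 3), clear of Eya3 at 10.9 ± 1.53 CPM per kb. Eya3, Sox8 (8.07 ± 2.06 CPM per kb), Eya4 (7.07 ± 2.57 CPM per kb) and Six4 (5.05 ± 0.939 CPM per kb) followed, and each overlapped its neighbor in this order over the 3 libraries. Six5 (1.72 ± 0.400 CPM per kb) and Eya1 (1.44 ± 0.157 CPM per kb) overlapped each other and lay below all of these. Six2 and Sox6 were last, at no more than 0.0275 CPM per kb in any control library. In the EPS group Sox4, Eya3, Eya4 and Six4 again led in this order, Eya1 and Six5 changed places, and Sox8, at 1.87 ± 0.434 CPM per kb (SD, n = 4), ranked between Eya1 (2.00 ± 0.270 CPM per kb) and Six5 (1.40 ± 0.306 CPM per kb), with ranges that overlapped both.

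**Figure D3:**
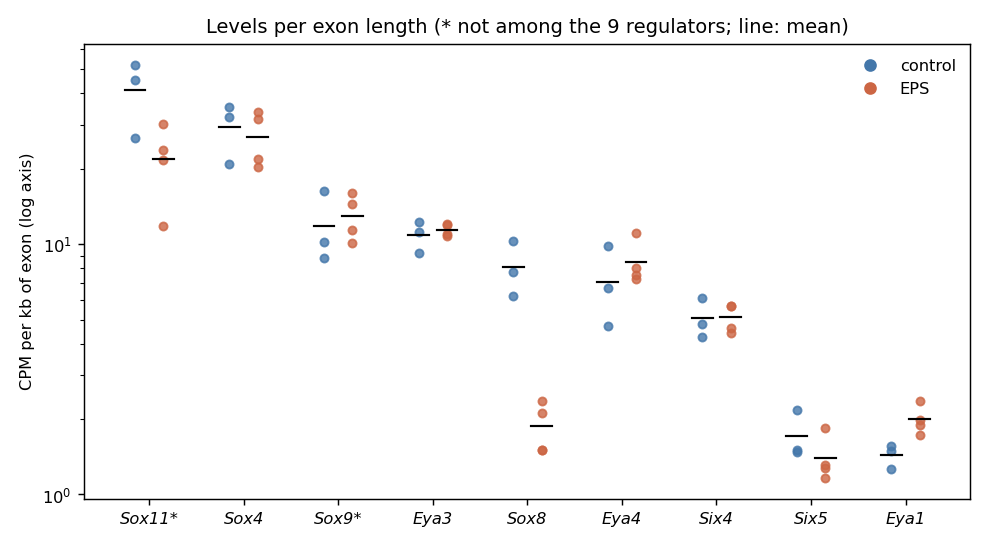
Level in CPM per kb of exon (log vertical axis) of the 7 members above 1 CPM and of Sox11 and Sox9, marked by an asterisk, in the control (blue) and EPS (orange) libraries, with the mean as a line. Sox8 leaves the group of Eya3, Eya4 and Six4 in the EPS libraries and comes to lie beside Six5 and Eya1.

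Of the further genes of the SIX-EYA-DACH network examined, Six3, Six6, Eya2, Dach1 and Dach2, 3 were above 0 in at least 1 library, all with a mean under 1 CPM, and 0 passed the thresholds in limma. At an unadjusted P under 0.05 there was 1, Eya2. Of all tested genes, 1.41% passed the thresholds in limma and 11.6% had an unadjusted P under 0.05. With edgeR on the recovered reads 1 gene of this network passed both thresholds, of 629 over all genes, and with DESeq2 0, of 585.
Eya2 (ENSMUSG00000017897.18, chromosome 2, 165595032 to 165771727) was seen in all 3 control libraries, with 2, 2 and 9 reads, while the EPS libraries held 0, 0, 1 and 0. Summed, 13 reads in the control stood against 1 in the EPS group, a ratio of 19.2 with a 95% interval of 2.89 to 818 from counting error alone. Most of the reads came from control replicate 4, and without it the ratio was 9.80 with an interval of 0.970 to 483 (log2 difference of all libraries -0.26, SE 0.08, adjusted p = 0.256 from limma). Six3 and Dach2 had at most 1 read in any library, and Dach1 and Six6 were listed at 0 throughout. Of the EYA signal per kb, Eya3 held 56.4 ± 5.93% in the control and 52.4 ± 5.58% in the EPS group, Eya4 35.7 ± 6.95% and 38.5 ± 5.28%, and Eya1 7.52 ± 0.823% and 9.09 ± 0.626%.

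Of 16 further SOX genes, 11 were above 0, 3 had a mean of at least 1 CPM, and 0 passed the thresholds in limma. At an unadjusted P under 0.05 there was 1, Sox11. Of all tested genes, 1.41% passed the thresholds in limma and 11.6% had an unadjusted P under 0.05. Among these SOX genes edgeR and DESeq2 each called 1, lower in the EPS group, of 629 and 585 over all genes. Sox11, the SOXC partner of Sox4, was at 433, 220 and 377 CPM in the control and at 198, 180, 252 and 98.3 CPM in the EPS libraries. EPS replicate 3 was above control replicate 3, so the groups overlapped (log2 difference -0.93, SE 0.34, adjusted p = 0.333 from limma). Without control replicate 3 its log2 difference was -1.22 and passed both thresholds. Of the summed Sox4 and Sox11 signal per kb, Sox4 was 40.4 to 44.2% in the control libraries (mean 42.1%) and 48.4 to 64.9% in the EPS libraries (mean 55.8%). Sox9, which like Sox8 belongs to the SOXE subgroup, was at 48.7 ± 16.4 CPM (SD, n = 3) and 53.7 ± 11.2 CPM (SD, n = 4), a log2 difference of 0.16 (SE 0.24, adjusted p = 0.830 from limma) that was -0.01 without control replicate 4. Sox8 therefore made up 41.5 ± 13.2% of the summed Sox8 and Sox9 signal per kb in the control and 13.0 ± 4.32% in the EPS group. Sox12 was at 7.67 ± 3.86 CPM and 5.78 ± 0.666 CPM, and its log2 difference of -0.27 was 0.07 without control replicate 4.

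Fiber-type genes are known targets of SIX-family and SOX6 proteins, and 3 of them passed the thresholds, all lower in the EPS group. Of 18 fast-fiber genes 1 fell and 0 rose, and of 13 slow-fiber genes 2 fell and 0 rose at P under 0.01 and 2-fold, where 0.439% of all tested genes fell. With adjustment over all genes, 0 of either list had an adjusted p under 0.05 in limma, while 6 fast genes, all lower in the EPS group, and 3 slow genes had an unadjusted P under 0.05, as did 11.6% of all tested genes. The slow genes were Myh7b and Mybpc1, which were lower, and Myoz2, a Z-disc protein gene, which was higher and whose groups did not overlap (log2 difference 0.59, SE 0.20, adjusted p = 0.288 from limma). The fast gene was Myh4, the type IIB myosin heavy chain, which fell from 514 ± 146 to 110.2 ± 87.5 CPM (SD, n = 3 and 4, log2 difference -2.48, SE 0.52, adjusted p = 0.108 from limma). Myosin heavy chain genes are similar in sequence and lie in a cluster, so reads could have been split between them.
Myh7b, a slow-type myosin heavy chain and host of a microRNA, fell from 16.3 ± 6.81 to 2.44 ± 1.32 CPM (log2 difference -2.35, SE 0.39, adjusted p = 0.0712 from limma). Mybpc1, the slow isoform of myosin-binding protein C, fell from 31.6 ± 9.74 to 7.27 ± 1.99 CPM (log2 difference -1.96, SE 0.28, adjusted p = 0.0542 from limma). The median log2 difference was -0.28 over the 18 fast genes and 0.01 over the 12 slow genes above 1 CPM, beside 0.10 over all genes above 1 CPM. The other fast myosins did not pass, with log2 differences of -0.89 for Myh1 (adjusted p = 0.465 from limma) and -0.87 for Myh2 (adjusted p = 0.364 from limma). Neither did Myh7, the main slow myosin, at -0.61 (adjusted p = 0.541 from limma). When 1 library was left out, Myh7 ranged from -0.79 to -0.34 and Myh2 from -1.05 to -0.53. The abundant Mylpf, Tnnc1 and Tnni1 had log2 differences of 0.25, -0.02 and -0.22. Mylpf ranged from 0.13 to 0.39 when 1 library was left out. Without control replicate 4, Tnnc1 was at 0.39 and Tnni1 at -0.08, and Tnnc1 was also above 0 without EPS replicate 3 (0.06) or 4 (0.02). Beside these genes, 9 of the 10 myotube markers had a lower mean log2 value in the EPS group, with summed levels that overlapped between the groups.
Of 9 myogenic factors, 8 were above 0 and 0 passed the thresholds in limma. With edgeR 1 passed, of 629 over all genes, and with DESeq2 1, of 585. At an unadjusted P under 0.05, as for 11.6% of all tested genes, there were 2, Myf6 and Myod1. Myf6 had a mean of 0.448 CPM, at most 16 reads in any library and groups that overlapped (log2 difference -0.43, adjusted p = 0.323 from limma). Myod1 had a log2 difference of -0.88 (SE 0.27, adjusted p = 0.236 from limma) and groups that did not overlap. Myog was high in control replicate 4, and its log2 difference of -1.07 (SE 0.48, adjusted p = 0.437 from limma) did not pass and was -0.47 without that library. Mef2c was at -0.80 (SE 0.42, adjusted p = 0.507 from limma), and ranged from -1.04 to -0.44 when 1 library was left out.

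**Figure D4:**
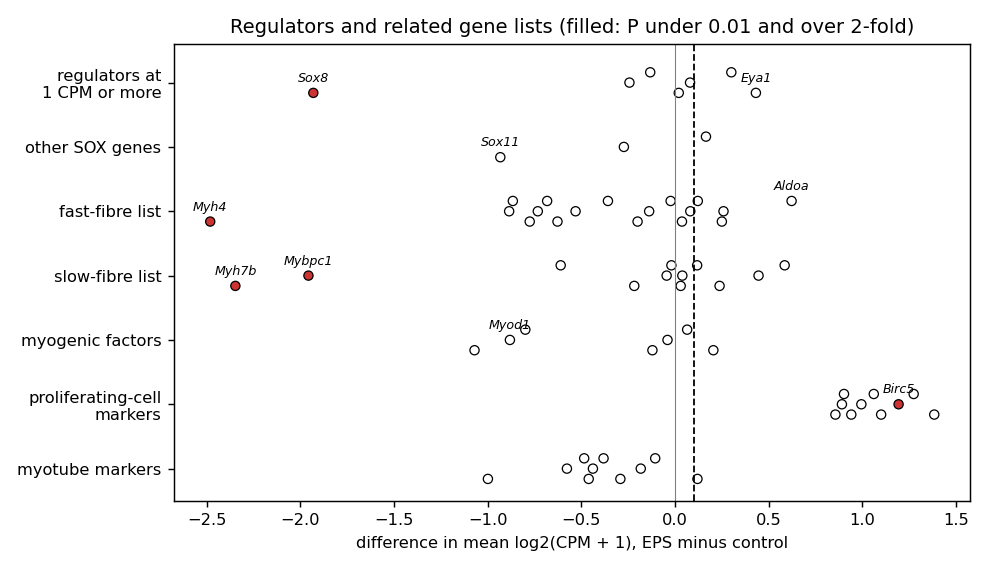
Difference in mean log2(CPM + 1), EPS minus control (horizontal axis), for each gene with a mean of at least 1 CPM in the members and in 6 gene lists, with filled points for genes past P under 0.01 and 2-fold and the dashed line at the median of all genes, 0.10. Filled points at the left are Sox8, Myh4, Myh7b and Mybpc1, and the 10 proliferating-cell markers all lie to the right of the line.

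Libraries of the same group also differed from each other, which the choice of members did not use. Six4 and Sox4 were low together in control replicate 3 and EPS replicates 2 and 4, and high together in control replicate 1 and EPS replicates 1 and 3. Over the 7 libraries, with the group means removed, their log2 values had a Pearson r of 0.92 and a Spearman rho of 0.89, and r was 0.95 without the 2 libraries farthest from the median of Six4. This was the highest of 21 member pairs. Six5 and Sox8 followed with an r of 0.83 and a rho of 0.68, but r was 0.39 without 2 libraries. The points share their libraries, depth and composition, and the coefficients are a description.
The genes with the most similar pattern over the 7 libraries, by Pearson r on log2(CPM + 1) among 12249 genes, were Smad7 (r = 0.99) and Gdf6 (r = 0.98) for Sox8, Lancl1 (0.99) and Ptger4 (0.98) for Eya1, and Pcdhga9 (0.99) and Hivep2 (0.99) for Six4. For Sox4 they were B130055M24Rik and Nacc2 (both 0.99), for Eya4 Dlg1 and 2210404J11Rik (both 0.99), for Eya3 Prkd2 (0.98) and Rdh13 (0.97), and for Six5 Rrnad1 (1.00) and Vamp4 (0.99). Group means were not removed for these coefficients, so they include the group difference that the members were selected on. Pearson r also takes no account of the size of a difference. Smad7 had a log2 difference of -0.23, beside -1.93 for Sox8, and Gdf6 had a mean of 3.85 CPM in the control and 0.119 CPM in the EPS group. These genes were picked as the highest of all genes compared, and the coefficients carry no test.
The members lie on 7 chromosomes, and of the 18 nearest protein-coding genes on either side, 15 were tested and 0 passed the thresholds in limma, while 2, Rps12 and Insc, both higher in the EPS group, had an unadjusted P under 0.05, beside 11.6% of all tested genes. At Sox8, Lmf1, 8.40 kb away, was at 24.9 ± 6.59 CPM (SD, n = 3) and 25.2 ± 2.94 CPM (SD, n = 4), a log2 difference of 0.03 (SE 0.20, adjusted p = 0.952 from limma). At Six5, Dmpk had a log2 difference of -0.36 (adjusted p = 0.572 from limma), and at Six4, Mnat1 had one of 0.25 (adjusted p = 0.595 from limma).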

How the data were processed

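RNA-seq was measured in 3 control and 4 EPS libraries of C2C12 myotubes, made from poly(A)-selected RNA. The authors deposited 1 table of CPM values per library, and the submitters' processing notes name STAR 2.5.4b and GRCm38. The read counter, annotation, strand setting and handling of multi-mapping reads are not given in the sources used here. All CPM values were whole multiples of 1 read (tolerance 0.01), so reads and library totals were recovered from them.

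The main test was limma 3.58.1 (R 4.3.3) with a trended prior on log2(CPM + 1) for the 19144 genes above 0 in at least 1 library, without covariates. A gene passed at an unadjusted P under 0.01 with more than a 2-fold difference on this scale, which understates changes of low genes. Adjusted p-values are Benjamini-Hochberg values over all tested genes. edgeR 4.0.16 and DESeq2 1.42.0 on recovered reads, other pseudocounts, filters and scalings, a replicate block and leaving out each library were alternatives. Scripts were tested on simulated data.

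Members and gene lists were chosen with earlier results of these data known. Named genes were all members, the other SIX, EYA and DACH genes above 0, and 2 genes most like each member. In the other SOX, fast-fiber, slow-fiber and myogenic-factor lists, genes past the thresholds were named. Added from these lists were up to 3 with the largest difference and up to 2 with the highest mean. This rule was not applied to the proliferating-cell, myotube and non-muscle markers. Genes given for an unadjusted P, and neighbors given with values, were added after their values were seen. Coordinates and exon lengths come from GENCODE M21 on GRCm38, matched by symbol, and promoters from RefSeq on GRCm38.p6. In the lists, 3 genes were matched by an older symbol. A result on 1 further gene is not reported here.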

Additional observations from a re-analysis of the deposited data

Results flagged for a closer look

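Mybpc1 in EPS replicate 3 stood far from the other libraries of its group, at 10.2 CPM against 5.95 to 6.53 CPM in the other 3. Its gap to the nearest library was 0.865 of the range of the group, above Dixon's 95% critical value for a group of 4. Among 22 groups of 4 libraries tested this way it was the 1 result, and chance marks about 1 in 20.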

How the results depend on the processing

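The log2 difference of Sox8 lay between -2.23 and -1.75 under the main analysis and 16 alternatives, all on the libraries it was selected on, so this range adds no support. The number of genes past the thresholds, 269 in the main analysis, was 601 with a pseudocount of 0.1 CPM, 169 without a filter on low values, 629 with edgeR, 585 with DESeq2 and 106 at P under 0.001, and it ranged from 209 to 325 when 1 library was left out. The share of these with higher levels in the EPS group was 68.8%, against 51.6% after quantile normalization, 52.8% after median-of-ratios scaling, 52.3% with edgeR and 54.2% with DESeq2. Among the other SIX, EYA and DACH genes 1 gene, Eya2, passed with a pseudocount of 0.1 CPM and with edgeR. Among the other SOX genes 1, Sox11, passed with edgeR, with DESeq2 and without control replicate 3, so that its count ranged from 0 to 1 when 1 library was left out. Of the fast-fiber genes 2 passed with DESeq2, Myh2 being added. Of the myogenic factors 1 passed with edgeR and DESeq2 (Myog), and 1 (Myod1) with the replicate block, without control replicate 3 and without EPS replicate 2, a range from 0 to 1. The cause was not tested. The replicate block, over 3 pairs of libraries, gave 276 genes, and the deviations of same-numbered libraries correlated at 0.25, -0.45 and 0.07. With 3 pairs these values cannot decide whether equal numbers mark a shared culture or day. The labels do not say, and the main fit left the samples unpaired. None of the results compared changed direction past a threshold. Depth limits Six2, Sox6 and Eya2, which rest on a few reads per library, and Myf6, with at most 16 reads in any library.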
